A study of Homo sapiens with 12 samples.

Results

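The comparison described here asked which genes changed differently between 8 h and 24 h under crizotinib than under ciclopirox. For each gene, the change under ciclopirox (24 h minus 8 h) was subtracted from the change under crizotinib (24 h minus 8 h). Arrays were taken by their titles, and 10 of the 12 arrays of the study enter this difference. For either drug there are 3 arrays at the earlier time and 2 at the later one. The other 2 arrays are vehicle (DMSO) controls whose labels give no time, and they served only to estimate the spread and as a reference level. All samples were A375, an established human melanoma cell line, profiled on Illumina bead arrays. Each drug was given at the concentration that inhibited 75% in an earlier assay read at 72 h, so both times precede the one at which the doses were matched. The titles number the replicates without saying that they were separate cultures, so the p-values below rest on a spread between arrays that could be purely technical.

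The array names are in conflict, and every result rests on the names of the normalized table, in which each column carries its sample. Each of its columns had a clear counterpart in the scanner table, with r between 0.9281 and 0.9788 and no other column above 0.8329. Yet for 2 of the 12 alone this was the column given in the sample's own description. Under the normalized table's names, the most similar array was one of the same group for all 12, against 7 of 12 under the descriptions. With the scanner signals named by the descriptions, 0 genes passed the test of the difference (limma, adjusted p under 0.05), and 1525 had an unadjusted p under 0.05. All 12 arrays lay on 1 chip with the groups in blocks, and chip position cannot be told apart from treatment.

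Ciclopirox is an antifungal hydroxypyridone that binds iron and thereby inhibits iron-dependent enzymes, among them ribonucleotide reductase and the prolyl hydroxylases that mark hypoxia-inducible factors for destruction. Crizotinib inhibits several receptor tyrosine kinases, MET and ALK among them, and as a lipophilic weak base it can collect in lysosomes. Programmes that such drugs can touch include the sterol response, in which SREBP-2 switches on cholesterol synthesis when membrane sterol is low, the amino acid and endoplasmic reticulum stress response led by ATF4, and the p53 response that halts the cell cycle.

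Markers were read first. SOX10, the neural crest and melanoma transcription factor, was high on every array, from 11.11 to 11.90 on the log2 scale of normalized intensity used for all levels below, and its change did not differ in the test (-0.00, limma adjusted p = 0.986). MITF was close to background (5.09 to 5.99, against a background limit of 5.334), and the pigment genes MLANA, PMEL, TYR and TYRP1 did not reach detection on 2 arrays. Of the markers of other cell types, 0 keratinocyte, 5 fibroblast, 2 leukocyte and 1 endothelial gene were measured. The summed linear level of the fibroblast markers ran from 212 to 259 over the ciclopirox, control and crizotinib 8 h arrays and from 285 to 313 at 24 h of crizotinib. COL1A1, COL1A2 and PDGFRA, which define fibroblasts, did not reach detection on 2 arrays. That of the leukocyte markers ran from 1000 to 1040 at 24 h of crizotinib and from 441 to 611 elsewhere, through CD68, a lysosomal membrane protein, while PTPRC, CD3E and LYZ did not reach it. The part of these markers in the results below was not tested.

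The change differed between the drugs for 1172 of the 10330 genes tested, or 11.3% (limma, adjusted p under 0.05). Of these, 554 (5.36%) changed more positively under crizotinib and 618 (5.98%) more negatively. By the within-drug tests, crizotinib was the drug that moved most of them. Here and below, a drug is said to move, raise or lower a gene when its own 24 h and 8 h arrays differed. The controls carry no time, so a change with time in culture cannot be told apart from the change under either drug. From 8 h to 24 h, 693 of the 1172 (59.1%) changed under crizotinib without passing the test under ciclopirox, 332 of them up and 361 down. Ciclopirox alone moved 200 (17.1%), and both drugs moved 177 (15.1%) in the same direction by different amounts. In 76 genes (6.48%) the drugs moved the level in opposite directions, and in 26 (2.22%) neither change passed by itself. The absolute change was larger under crizotinib in 898 of the called genes and larger under ciclopirox in 274.

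In the background, 3988 genes (38.6%) changed between 8 h and 24 h of crizotinib, 2191 upward (21.2%) and 1797 downward (17.4%). Under ciclopirox 2223 (21.5%) changed, 1299 upward (12.6%) and 924 downward (8.94%). The list counts below are to be read beside these shares and the 11.3% called for the difference. Across genes, which are not independent replicates, the SD of the change was 0.48 under crizotinib and 0.34 under ciclopirox, and the medians were 0.03 and 0.01. Among called genes the drugs stood farther apart at 24 h than at 8 h in 969 and closer in 203, and in 738 the sign of the gap turned. No minimum gap was set, so the 738 include genes with hardly any gap at 8 h, such as FASN (-0.05, then 0.99 at 24 h). The smallest absolute difference called was 0.38, the median called was 0.74, and 303 genes differed by at least 1, 147 upward and 156 downward. The count depended on single arrays at 24 h. It was 583 when crizotinib replicate 1 was left out, 634 for ciclopirox replicate 2 and 775 for crizotinib replicate 2, but 1036 for ciclopirox replicate 1. Leaving out an 8 h array gave 794 to 1120 calls, and all 1172 genes kept their direction in each of these fits. The genes were called on these same arrays, so the kept directions are not independent support.

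**Figure D1:**
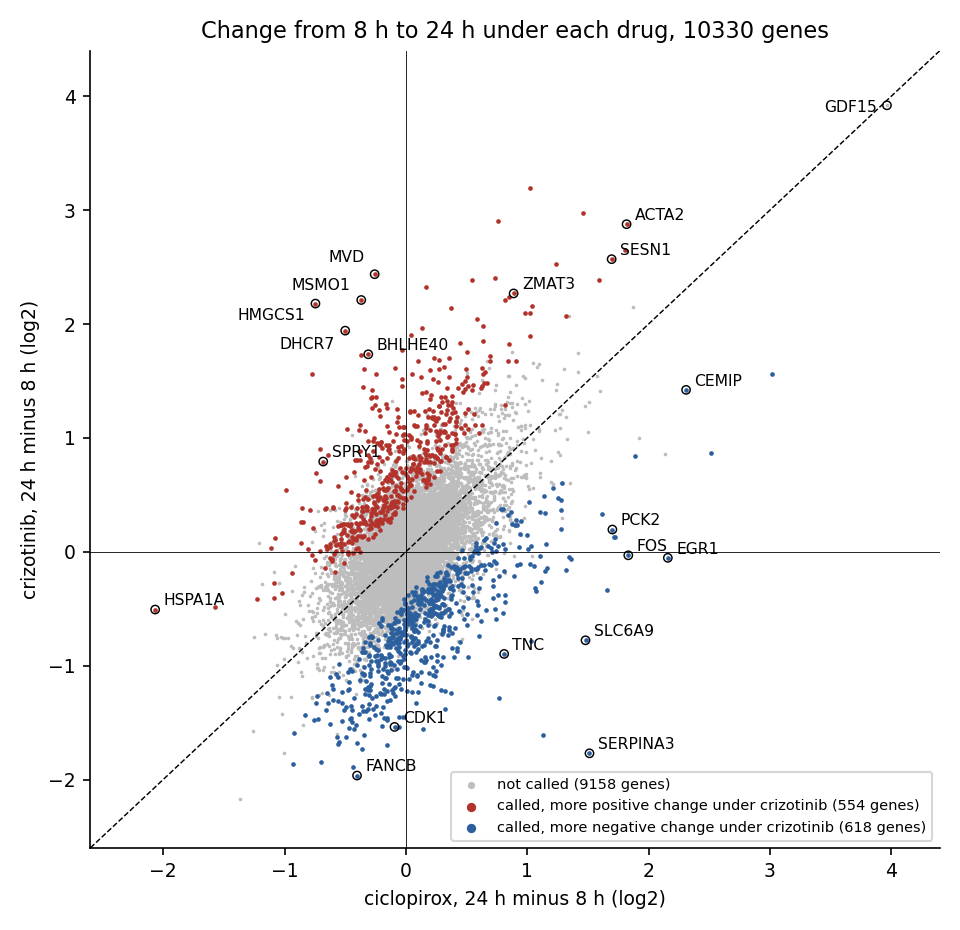
Each point is a gene, with its log2 change from 8 h to 24 h under ciclopirox on the horizontal axis and under crizotinib on the vertical axis. Grey points did not pass the test of the difference, red ones (554) changed more positively and blue ones (618) more negatively under crizotinib. The dashed diagonal marks equal change, circled genes are described in the text, and sterol genes such as HMGCS1 sit at the upper left while EGR1 and FOS sit on the right near 0 on the crizotinib axis.

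**Figure D2:**
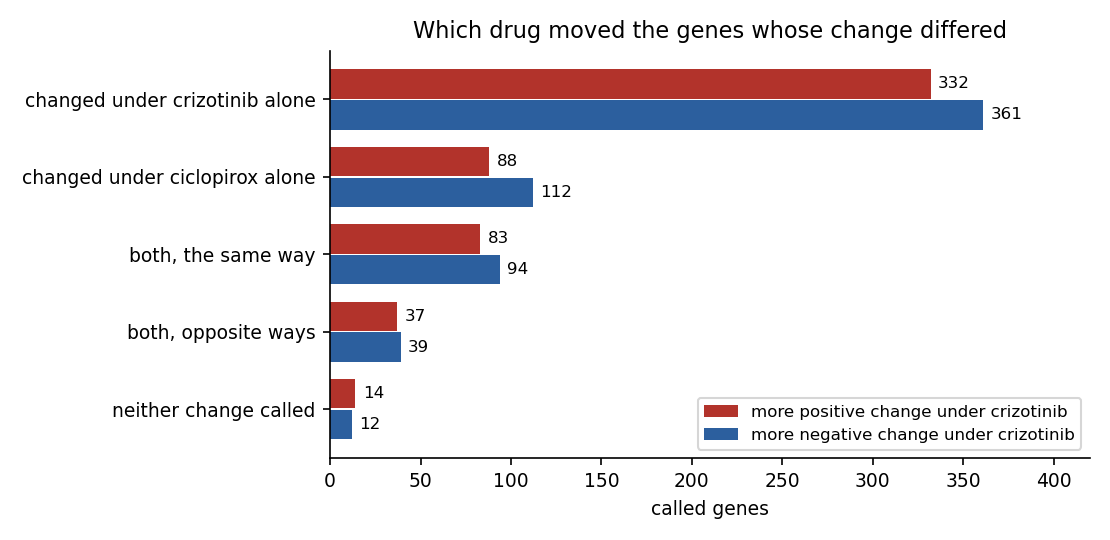
Bars count the 1172 called genes by which of the within-drug changes passed the test, with red for a more positive and blue for a more negative change under crizotinib. Genes that changed under crizotinib alone are the most numerous, 332 and 361, against 88 and 112 for ciclopirox alone.

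Cholesterol synthesis genes diverged, and crizotinib moved most of them. Of 17 measured, 11 changed more positively under crizotinib and 0 more negatively, with a median difference of 1.26 against 0.01 for all genes tested. Within crizotinib 15 of the 17 rose between 8 h and 24 h (median change 1.11). Within ciclopirox 3 rose and 4 fell (median -0.15).

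The promoters of HMGCS1 and MSMO1 are shown because these genes have the smallest p-values of the list, and the promoter of each measured member was scanned. The 250 bases before the annotated start come from RefSeq (GRCh38.p14) and are written 5′ to 3′ on the gene's strand. Capitals mark CCAAT or its complement ATTGG, the letters that the factor NF-Y binds.
HMGCS1: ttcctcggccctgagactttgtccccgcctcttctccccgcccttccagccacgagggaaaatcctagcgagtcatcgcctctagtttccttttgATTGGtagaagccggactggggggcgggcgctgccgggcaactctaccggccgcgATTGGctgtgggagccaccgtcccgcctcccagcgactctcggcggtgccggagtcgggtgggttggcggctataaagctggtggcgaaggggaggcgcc
MSMO1: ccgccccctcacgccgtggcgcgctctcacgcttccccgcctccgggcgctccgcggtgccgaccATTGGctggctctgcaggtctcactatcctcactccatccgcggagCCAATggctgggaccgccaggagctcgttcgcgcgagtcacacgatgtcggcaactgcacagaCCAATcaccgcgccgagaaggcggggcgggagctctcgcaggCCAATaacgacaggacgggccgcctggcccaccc
HMGCS1 lies at chr5:43313413-43313662, minus strand, and MSMO1 at chr4:165327419-165327668, plus strand. CCAAT was found on either strand in 13 of the 15 cholesterol gene promoters available (86.7%), against 36.0% of the 8373 promoters of tested genes and 33.0% of all 27305 in the table. It was not particular to this list. Of the serine, cysteine and one-carbon promoters, whose called genes differed the other way, 75% held it. Shares were 78.8% for mitosis, 56.2% for DNA replication and 50% for the ATF4 list. Immediate early factors had 41.7% and amino acid transporters 22.2%. The sterol element letters TCACNCCAC were found in 1 of the 15, that of SREBF2, and in 0.884% of tested genes' promoters. A match is a description of the letters and not a binding site.

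HMGCS1, the synthase that makes HMG-CoA, measured 9.48, 9.63 and 9.64 on the ciclopirox 8 h arrays and 8.85 and 8.82 at 24 h. Under crizotinib it measured 10.96, 10.93 and 11.00 at 8 h and 13.16 and 13.13 at 24 h, with the controls at 9.25 and 9.39. Crizotinib was therefore already above ciclopirox at 8 h on every array, and the groups moved apart in opposite directions. The change was 2.18 under crizotinib (limma adjusted p = 1.58e-07) and -0.75 under ciclopirox (limma adjusted p = 0.000374). The difference was 2.92 ± 0.12 (SE, with 3 arrays per group at 8 h and 2 at 24 h; limma adjusted p = 1.09e-06).

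MSMO1 and DHCR7, which act late in the pathway from lanosterol to cholesterol, did the same. MSMO1 went from 7.65, 7.48 and 7.66 to 7.36 and 7.10 under ciclopirox and from 9.01, 8.88 and 9.15 to 11.28 and 11.17 under crizotinib (difference 2.58 ± 0.16, limma adjusted p = 2.79e-05). DHCR7 went from 7.85, 7.95 and 8.17 to 7.47 and 7.51 under ciclopirox and from 8.61, 8.49 and 8.25 to 10.49 and 10.29 under crizotinib (difference 2.44 ± 0.22, limma adjusted p = 0.000259). For both genes the 24 h arrays of the drugs lay on either side of the controls, at 7.80 and 7.87 for MSMO1 and 7.74 and 8.20 for DHCR7. MVD, the mevalonate diphosphate decarboxylase, rose under crizotinib alone. It measured 6.17, 6.06 and 5.90 at 8 h and 8.65 and 8.31 at 24 h of crizotinib, while ciclopirox gave 5.60, 5.42 and 6.01 and then 4.99 and 5.84, which overlap (difference 2.69 ± 0.34, limma adjusted p = 0.00125).

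The other called members were LSS (1.70) and SQLE (1.63), which cyclize and oxidize squalene, INSIG1 (1.49), the sterol sensor that restrains SREBP, MVK (1.42), ACAT2 (1.26), NSDHL (1.15) and SC5D (0.93). INSIG1 was already high at 8 h of crizotinib (10.12 to 10.26, against 8.49 to 8.60 under ciclopirox) and rose further to 11.28 and 11.37, while it fell to 8.09 and 8.23 under ciclopirox. CYP51A1 (0.91), FDPS (0.48), EBP (0.47), PMVK (0.07) and TM7SF2 (-0.26) did not pass. SREBF2, which encodes SREBP-2 itself, did not pass either, at -0.40 ± 0.23 (limma adjusted p = 0.292). Its level was near background, from 5.01 to 5.59 on the crizotinib arrays and from 5.13 to 5.92 on the ciclopirox arrays.

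**Figure D3:**
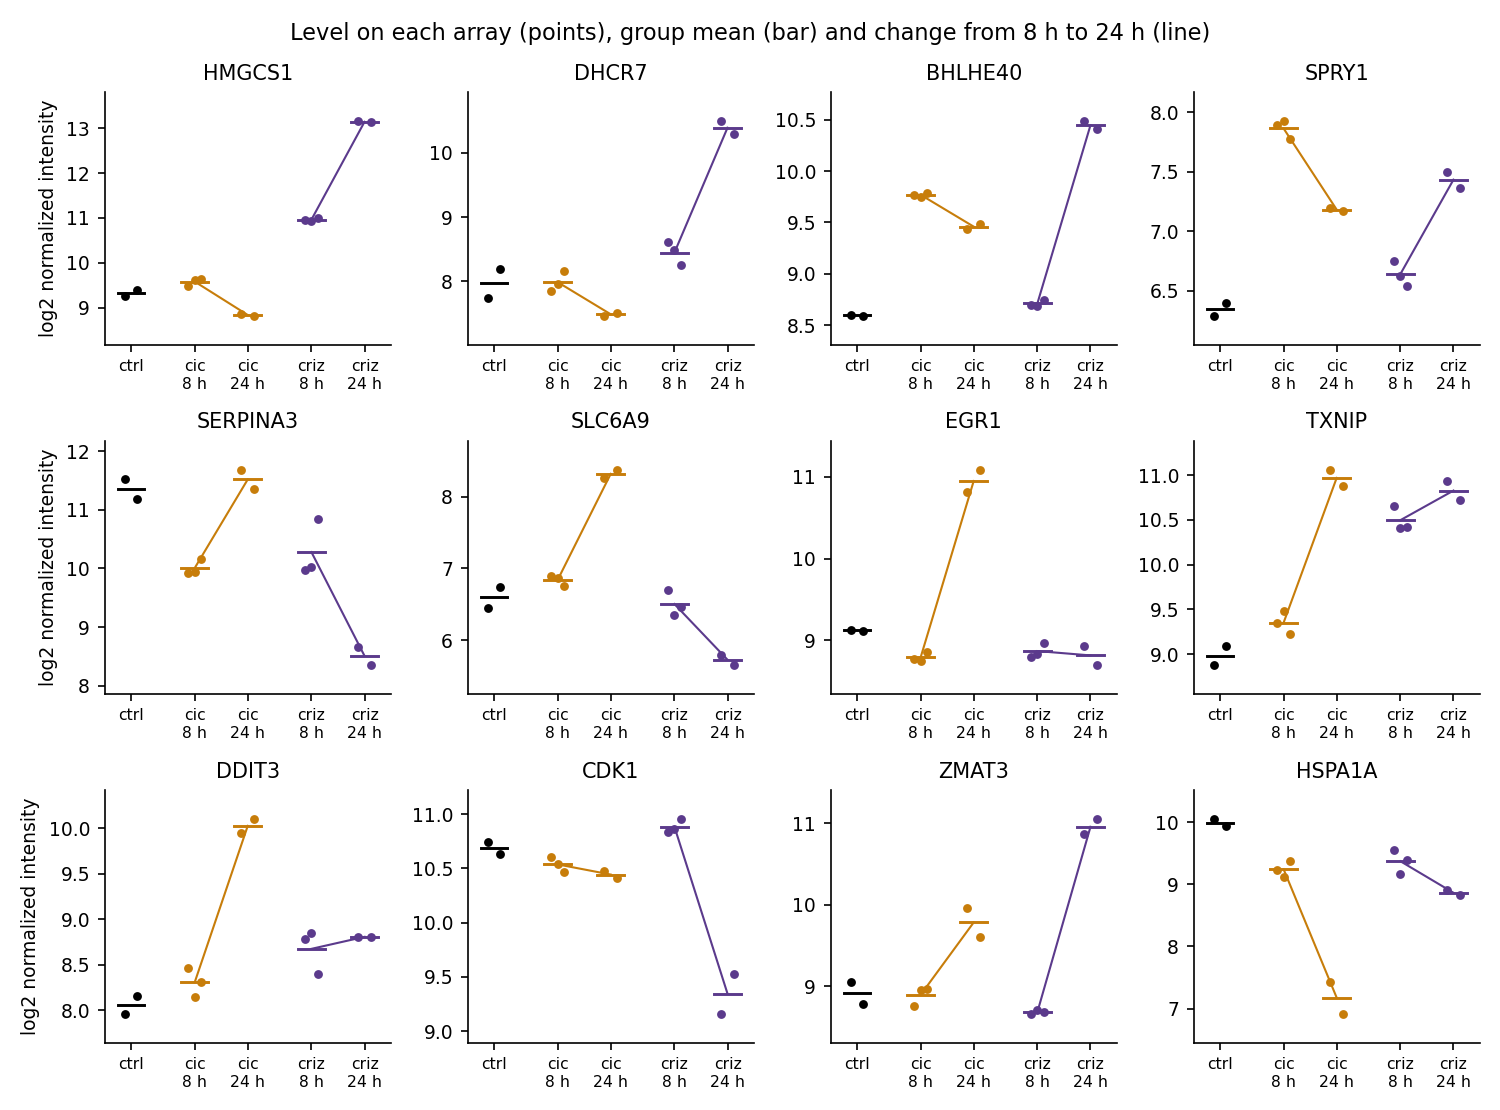
Each panel plots the log2 normalized intensity of a gene on every array, with controls in black, ciclopirox in orange and crizotinib in purple, a bar for the group mean and a line joining 8 h to 24 h. HMGCS1, DHCR7, BHLHE40 and SPRY1 rise with crizotinib and fall with ciclopirox, while SERPINA3 and SLC6A9 do the opposite. EGR1, TXNIP and DDIT3 rise with ciclopirox, CDK1 falls with crizotinib, and ZMAT3 and HSPA1A change in the same direction under both. The vertical axes differ between panels and do not start at 0.

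Of 11 fatty acid synthesis genes measured, 5 changed more positively and 1 more negatively, with a median difference of 0.38. SCD, the stearoyl-CoA desaturase, measured 12.13, 12.02 and 12.22 at 8 h and 12.93 and 13.09 at 24 h of crizotinib, and 11.38, 11.40 and 11.53 and then 11.13 and 11.20 with ciclopirox (difference 1.16 ± 0.14, limma adjusted p = 0.000794). FASN, the fatty acid synthase, followed (1.04 ± 0.15, limma adjusted p = 0.00228), and both rose under crizotinib alone. ACSS2, which makes acetyl-CoA from acetate, rose under both drugs, by 1.82 with crizotinib and 0.85 with ciclopirox, and ELOVL6 (0.95) and ACACA (0.70) rose with crizotinib alone. The member with the negative difference was SREBF1, at -0.52 (limma adjusted p = 0.0364), and its other probe gave a difference of 0.11, of the opposite sign. On the probe used it rose by 0.40 under ciclopirox, and its call was lost without 9 of the 12 arrays in turn, with adjusted p up to 0.127 (without ciclopirox 24 h replicate 2).

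Growth factor signalling genes split, and ciclopirox moved those that differed most. EGR1 and FOS encode immediate early transcription factors, which are induced within minutes of mitogen or stress signals through serum response factor. EGR1 measured 8.77, 8.75 and 8.85 at 8 h and 10.82 and 11.08 at 24 h of ciclopirox. It stayed between 8.70 and 8.97 on all 5 crizotinib arrays, where the times overlapped. The change was 2.16 under ciclopirox (limma adjusted p = 2.85e-06) and -0.05 under crizotinib (limma adjusted p = 0.725), a difference of -2.21 ± 0.15 (limma adjusted p = 5.71e-05). FOS went from 5.86, 5.33 and 5.59 to 7.47 and 7.38 under ciclopirox and from 5.55, 6.07 and 5.93 to 5.83 and 5.81 under crizotinib (difference -1.86 ± 0.24, limma adjusted p = 0.00142). The third called member of the 16 was KLF4, which fell under crizotinib (-0.84). Its difference of -1.26 (limma adjusted p = 0.0112) did not pass without ciclopirox 24 h replicate 2 (adjusted p = 0.0533) or crizotinib 24 h replicate 1 (adjusted p = 0.054).

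The rest of that list did not follow EGR1. ATF3 rose by 1.28 under crizotinib and 1.47 under ciclopirox, JUNB by 0.98 and 0.91 and FOSB by 0.90 and 1.06, and none of these differences passed (limma adjusted p from 0.522 to 0.887). The median difference of the list was -0.14, with 0 members more positive. The promoter of EGR1 is shown because it was the only one of the 12 available from the list with a CArG box, the element that serum response factor binds, which 0.991% of tested genes' promoters hold. Capitals mark the boxes, and the sequence lies at chr5:138465229-138465478, plus strand (RefSeq, GRCh38.p14).
EGR1: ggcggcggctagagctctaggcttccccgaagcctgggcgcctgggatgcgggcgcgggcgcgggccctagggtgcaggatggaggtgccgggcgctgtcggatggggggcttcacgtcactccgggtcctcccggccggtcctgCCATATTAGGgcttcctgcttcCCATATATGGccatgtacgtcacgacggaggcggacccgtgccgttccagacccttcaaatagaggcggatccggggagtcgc
The boxes span 105 to 96 and 83 to 74 bases before the start.

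Among 12 feedback genes of the ERK pathway, 2 changed more positively and 2 more negatively. SPRY1, a Sprouty inhibitor of receptor signalling, crossed over. With ciclopirox it measured 7.89, 7.93 and 7.77 at 8 h and 7.19 and 7.17 at 24 h, and with crizotinib 6.75, 6.63 and 6.55 and then 7.50 and 7.37 (difference 1.47 ± 0.13, limma adjusted p = 0.000259). Ciclopirox arrays were thus the higher at 8 h and the lower at 24 h. SPRY4 (-0.51), ETV5 (-0.49) and CCND1 (0.50) were called with limma adjusted p between 0.0444 and 0.0491. With any of 8 arrays left out singly, both crizotinib 24 h arrays among them, 1 of the 4 genes passed. DUSP6, the ERK phosphatase often read as a measure of pathway output, gave -0.20 ± 0.18 (limma adjusted p = 0.522) on its brightest probe and -0.71 on a further probe, with a ciclopirox change of 0.88 there against 0.40. EGFR fell by 0.68 under crizotinib and rose by 0.31 under ciclopirox (difference -0.99 ± 0.12, limma adjusted p = 0.00118). Its dimmer probe gave no fall under crizotinib (0.07), 0.51 under ciclopirox and a difference of -0.44, so the opposite directions rest on a single probe. MET, a crizotinib target, measured 8.22 to 8.72 with ciclopirox and 8.25 to 8.48 with crizotinib, and its difference of -0.25 (95% interval -0.63 to 0.12, limma adjusted p = 0.37) did not pass. ALK was at background in all 4 treated groups.

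Genes of the amino acid stress response changed more negatively under crizotinib, and ciclopirox raised most of those that differed. Of 13 transcription factors and effectors of the ATF4 branch, 6 differed, all more negative (median difference -0.58, ciclopirox median 0.58, crizotinib median 0.05). DDIT3, which encodes the stress factor CHOP, measured 8.46, 8.14 and 8.31 at 8 h and 9.95 and 10.10 at 24 h of ciclopirox. With crizotinib it measured 8.78, 8.85 and 8.39 and then 8.81 and 8.81, so that its 24 h values lay within the range at 8 h. The difference was -1.59 ± 0.20 (limma adjusted p = 0.00125). CEBPG (-0.78) fell under crizotinib and rose under ciclopirox. CHAC1, which degrades glutathione, was at background in both crizotinib groups and rose at least 1.45-fold under ciclopirox. TRIB3 and STC2 were called too, but their calls were lost without 9 and 10 of the 12 arrays in turn, every ciclopirox 8 h array among them. The count of 6 became 4 without ciclopirox 8 h replicate 1. ATF4 itself rose by 0.41 under ciclopirox, and its difference of -0.47 missed the threshold (limma adjusted p = 0.0504). VLDLR (-0.96) fell under crizotinib, and its call was lost without crizotinib 24 h replicate 1 (adjusted p = 0.0535).

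The enzymes of serine, cysteine and one-carbon metabolism, many of which ATF4 switches on, diverged more evenly. Of 12 measured, 9 changed more negatively under crizotinib and 0 more positively, with a median difference of -1.05. Under ciclopirox 10 rose (median 0.72), and under crizotinib 2 fell and 0 rose (median -0.11). ASNS, the asparagine synthetase, went from 12.11, 12.14 and 11.99 to 13.49 and 13.38 with ciclopirox and stayed between 11.45 and 11.71 with crizotinib (difference -1.42 ± 0.15, limma adjusted p = 0.000558). PCK2, the mitochondrial phosphoenolpyruvate carboxykinase, went from 8.56, 8.17 and 8.25 to 9.84 and 10.22 with ciclopirox, while crizotinib gave 8.31, 8.07 and 8.14 and then 8.33 and 8.40 (difference -1.51 ± 0.20, limma adjusted p = 0.00163). In both genes the ciclopirox 24 h arrays stood apart from the other 8 treated arrays. CTH (-1.47), PSPH (-0.99) and PHGDH (-0.73), of cysteine and serine synthesis, were likewise moved by ciclopirox alone. MTHFD2 (-1.23) and PSAT1 (-1.23) fell under crizotinib and rose under ciclopirox. The ATF4 element letters TGATGNAA were found in 2 of the 8 promoters available (25%), against 1.4% of tested genes' promoters. The ATF4 list had them in 1 of 12 and the amino acid transporters in 0 of 9. The cyclic AMP element letters TGACGTCA were found in 0, 1 and 0 promoters of these lists, against 3.0% of tested genes' promoters.

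Among 10 amino acid transporters, 5 differed, all more negative. SLC6A9, the glycine transporter GlyT1, had the second most negative difference of all called genes above background on 1 array or more of every treated group. It rose from 6.89, 6.87 and 6.76 to 8.27 and 8.37 with ciclopirox and fell from 6.71, 6.35 and 6.46 to 5.79 and 5.66 with crizotinib (difference -2.26 ± 0.17, limma adjusted p = 0.00015). SLC1A5, a neutral amino acid carrier that takes up glutamine, fell from 9.60, 9.57 and 9.55 to 8.63 and 8.52 with crizotinib and rose by 0.29 under ciclopirox (difference -1.29 ± 0.12, limma adjusted p = 0.000287). The count of 5 fell to 2 without crizotinib 24 h replicate 1 or ciclopirox 24 h replicate 2 and to 3 without ciclopirox 8 h replicate 2, ciclopirox 24 h replicate 1 or crizotinib 8 h replicate 1. SLC7A5 and SLC3A2, which together form a leucine carrier, gave -0.05 and -0.27 and did not pass.

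Aminoacyl-tRNA synthetases, which charge tRNAs, gave 6 called of 16, all more negative (median difference -0.14). MARS1 (-0.88) fell under crizotinib, GARS1 (-0.73) fell under crizotinib and rose under ciclopirox, and SARS1 (-0.70) and WARS1 (-0.67) rose more or only under ciclopirox. In the endoplasmic reticulum list 2 of 15 differed (13.3%), near the 11.3% of all genes tested. XBP1, a transcription factor of the unfolded protein response, rose by 0.81 under ciclopirox (difference -0.98 ± 0.13, limma adjusted p = 0.00146). HSPA5, the chaperone BiP, fell by 0.94 under crizotinib and 0.38 under ciclopirox (difference -0.55, limma adjusted p = 0.0218). That call was lost without ciclopirox 8 h replicate 3, ciclopirox 24 h replicate 1 or crizotinib 24 h replicate 1 (adjusted p from 0.0505 to 0.0932).

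**Figure D4:**
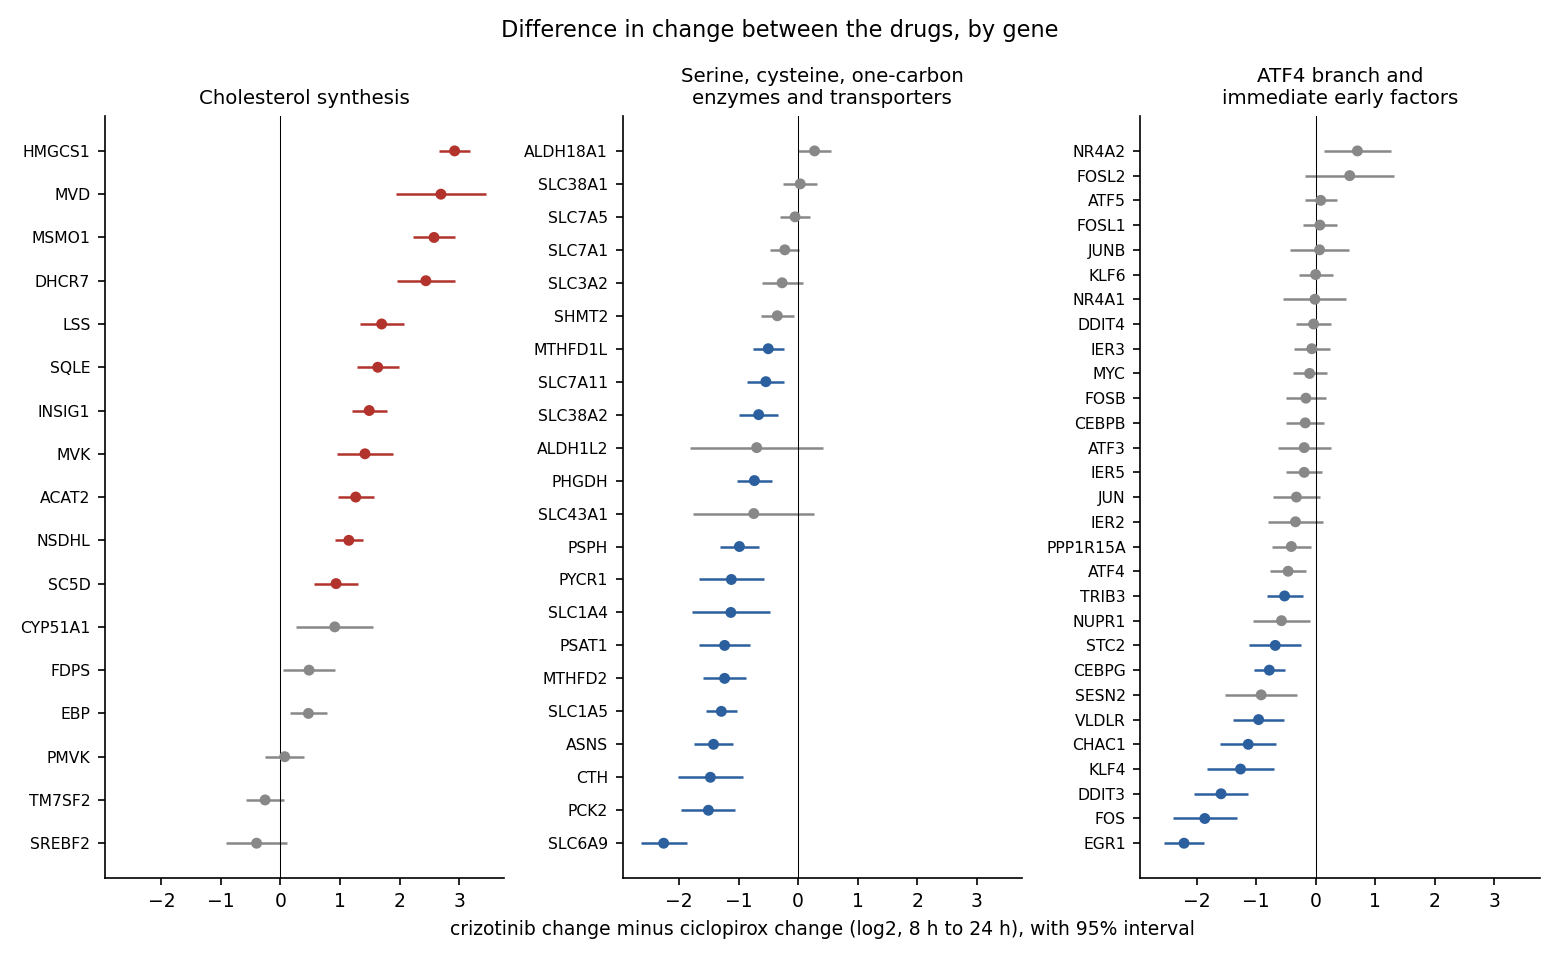
Points give the crizotinib change minus the ciclopirox change of each measured gene on a log2 axis, with its 95% interval, for cholesterol synthesis (left), amino acid enzymes and transporters (centre) and the ATF4 and immediate early lists (right). Red and blue points passed the test and grey ones did not. The called sterol genes lie between 0.93 and 2.92 and the called amino acid genes between -2.26 and -0.50.

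Mitosis genes fell under both drugs, many of them more under crizotinib. Of 39 mitosis genes, 38 fell under crizotinib between 8 h and 24 h (median -1.16) and 26 under ciclopirox (median -0.45). The change was more negative under crizotinib in 24 and more positive in 0, with a median difference of -0.74. In RNA from whole cultures, fewer dividing cells and less of these transcripts per cell cannot be told apart. CDK1, the kinase that starts mitosis, measured 10.83, 10.87 and 10.95 at 8 h and 9.16 and 9.53 at 24 h of crizotinib. With ciclopirox it measured 10.61, 10.54 and 10.47 and then 10.48 and 10.41, with the controls at 10.74 and 10.63. A fall of 1.54 under crizotinib stood against a change of -0.09 under ciclopirox (difference -1.44 ± 0.15, limma adjusted p = 0.000564), and a further CDK1 probe gave -1.66.

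The promoter of CDK1, the called mitosis gene with the largest absolute difference, is shown, and it carries both cell cycle motifs searched. Other mitosis promoters carry both too, among them that of CDC20, whose difference did not pass. Capitals mark TTTGAA, the core letters of the cell cycle homology region read by the DREAM complex, and CCAAT. It lies at chr10:60778081-60778330, plus strand (RefSeq, GRCh38.p14).
CDK1: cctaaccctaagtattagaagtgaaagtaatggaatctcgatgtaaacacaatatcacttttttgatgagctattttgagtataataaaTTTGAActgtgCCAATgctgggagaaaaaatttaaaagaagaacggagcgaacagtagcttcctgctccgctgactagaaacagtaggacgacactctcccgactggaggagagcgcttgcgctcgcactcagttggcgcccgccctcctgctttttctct
TTTGAA spans 161 to 156 and CCAAT 150 to 146 bases before the start. TTTGAA was found on either strand in 19 of the 33 mitosis promoters available (57.6%), against 8.59% of tested genes' promoters and 13.6% of all in the table, and CCAAT in 26 (78.8%). In the 32 promoters of the DNA replication list TTTGAA was found in 1 (3.12%).

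TOP2A, the topoisomerase that untangles chromosomes, fell from 12.26, 12.37 and 12.23 to 11.00 and 11.08 with crizotinib, and ciclopirox gave 11.62 to 11.73 and then 11.57 and 11.58 (difference -1.14 ± 0.12, limma adjusted p = 0.000495). KIF4A (-1.28) and NDC80 (-1.28), of the spindle and kinetochore, fell under crizotinib alone, and CCNA2, a cyclin, fell under both by 1.47 and 0.72. CDC20, which activates the anaphase-promoting complex, fell by 0.62 under crizotinib and 0.66 under ciclopirox and gave no difference that passed (0.04, 95% interval -0.25 to 0.33, limma adjusted p = 0.872).

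DNA replication genes fell mostly with crizotinib. Of 36 measured, 35 fell under crizotinib and 14 under ciclopirox, and 18 differed, all more negative (median -0.53). The 18 became 10 without crizotinib 24 h replicate 1. POLE (-1.08) and PRIM1 (-1.01), a replicative polymerase and a primase subunit, and RRM2 (-0.95), the iron-containing subunit of ribonucleotide reductase, fell under crizotinib alone. RRM2 measured 9.79, 9.63 and 9.44 and then 8.37 and 8.58 with crizotinib, and 10.05, 10.27 and 10.25 and then 10.11 and 9.88 with ciclopirox. The helicase subunits MCM5 and MCM6 fell under both drugs, by 0.48 and 0.53 with crizotinib and 0.51 and 0.64 with ciclopirox, with differences of 0.02 (95% interval -0.26 to 0.30) and 0.11 (-0.19 to 0.40) that did not pass.

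Of 14 Fanconi and homologous recombination genes, 7 differed, all more negative (median -0.58), and 10 fell under crizotinib against 1 under ciclopirox. FANCB, of the Fanconi core complex, fell from 7.64, 7.51 and 7.81 to 5.80 and 5.57 with crizotinib, while ciclopirox gave 7.77, 7.53 and 7.71 and then 7.06 and 7.47 (difference -1.56 ± 0.20, limma adjusted p = 0.00119). RAD54L (-1.41), BLM (-1.33) and EXO1 (-1.26), which act in strand exchange and resection, fell under crizotinib alone. PSMC3IP (-1.70), a cofactor of recombinases, and CENPO (-1.70), a centromere protein, lay outside these lists and were among the 12 most negative genes.

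The p53 targets rose under both drugs, and a few rose more under crizotinib. Of 20 measured, 19 rose under each drug (median 1.21 under crizotinib and 0.96 under ciclopirox), and 4 differed, all more positive. ZMAT3, an RNA-binding protein that p53 induces, measured 8.76, 8.96 and 8.96 and then 9.96 and 9.61 with ciclopirox, and 8.67, 8.71 and 8.68 and then 10.86 and 11.05 with crizotinib. Crizotinib arrays were the lower at 8 h and the higher at 24 h (difference 1.38 ± 0.18, limma adjusted p = 0.00126). SESN1 rose by 2.57 and 1.70 (difference 0.87 ± 0.13, limma adjusted p = 0.00284), and TP53I3 (0.74) by 1.25 and 0.51. CDKN1A, which encodes the cell cycle inhibitor p21, was at background at 8 h of either drug and reached 7.91 and 7.81 at 24 h of crizotinib against 6.09 and 5.53 with ciclopirox. Those are rises of at least 5.77-fold and at least 1.39-fold, and the fitted difference passed (limma adjusted p = 0.00146). GDF15, a stress cytokine, rose from background to 8.84 and 8.68 with ciclopirox, at least 10.8-fold, and from 5.16, 5.33 and 4.56, of which 1 was above background, to 8.95 and 8.92 with crizotinib. Its difference did not pass (-0.04, 95% interval -0.61 to 0.53, limma adjusted p = 0.934). GADD45A rose by 1.08 and 1.10. The count of 4 became 8 with a trended, robust variance model and 7 with 16 added to every value.

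Some heat shock genes fell more under ciclopirox. Of 15 measured, 9 fell under ciclopirox and 7 under crizotinib, and 4 differed, all more positive under crizotinib. HSPA1A, an inducible HSP70, measured 9.23, 9.12 and 9.38 and then 7.43 and 6.92 with ciclopirox, and 9.55, 9.17 and 9.39 and then 8.90 and 8.83 with crizotinib, against 10.05 and 9.94 in the controls. All 4 arrays at 24 h were below the 8 h arrays of their drug, and ciclopirox lay lowest (difference 1.56 ± 0.22, limma adjusted p = 0.0021). HSPA1B gave 1.09 ± 0.15 (limma adjusted p = 0.00151). The 2 genes are near-identical copies, so their probes may read both. HSPA8 fell by 0.71 under ciclopirox alone (difference 0.72), and HSPB1 (0.63) rose by 0.45 under crizotinib.

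Of 19 targets of hypoxia-inducible factors, 4 changed more positively and 1 more negatively (median 0.23), and BHLHE40 and PFKFB4 crossed over. BHLHE40, a transcriptional repressor of the clock and hypoxia responses, measured 9.77, 9.75 and 9.79 at 8 h and 9.43 and 9.49 at 24 h of ciclopirox. With crizotinib it measured 8.70, 8.69 and 8.75 and then 10.49 and 10.41, with controls at 8.60 and 8.59. Ciclopirox arrays were the higher at 8 h and crizotinib arrays at 24 h (difference 2.04 ± 0.10, limma adjusted p = 4.82e-06). PFKFB4, which controls the rate of glycolysis, went from 10.31 on all 3 arrays to 9.90 and 9.75 with ciclopirox and from 9.14, 9.03 and 9.36 to 10.28 and 10.23 with crizotinib (difference 1.56 ± 0.14, limma adjusted p = 0.000259). CA12, a carbonic anhydrase, was above background only at 24 h of crizotinib, at least 1.03-fold up. The list's count of 5 became 3 without crizotinib 24 h replicate 1. Of 16 glycolysis genes, ALDOC (0.77) and PFKM (0.49) differed (12.5%), near the 11.3% of all genes tested. Both calls were lost without ciclopirox 24 h replicate 2 (adjusted p = 0.0627 and 0.0694), ALDOC also without crizotinib 24 h replicate 1 (0.0614), and PFKM also without ciclopirox 8 h replicate 3, ciclopirox 24 h replicate 1 or crizotinib 24 h replicate 2 (0.0519 to 0.0873).

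**Figure D5:**
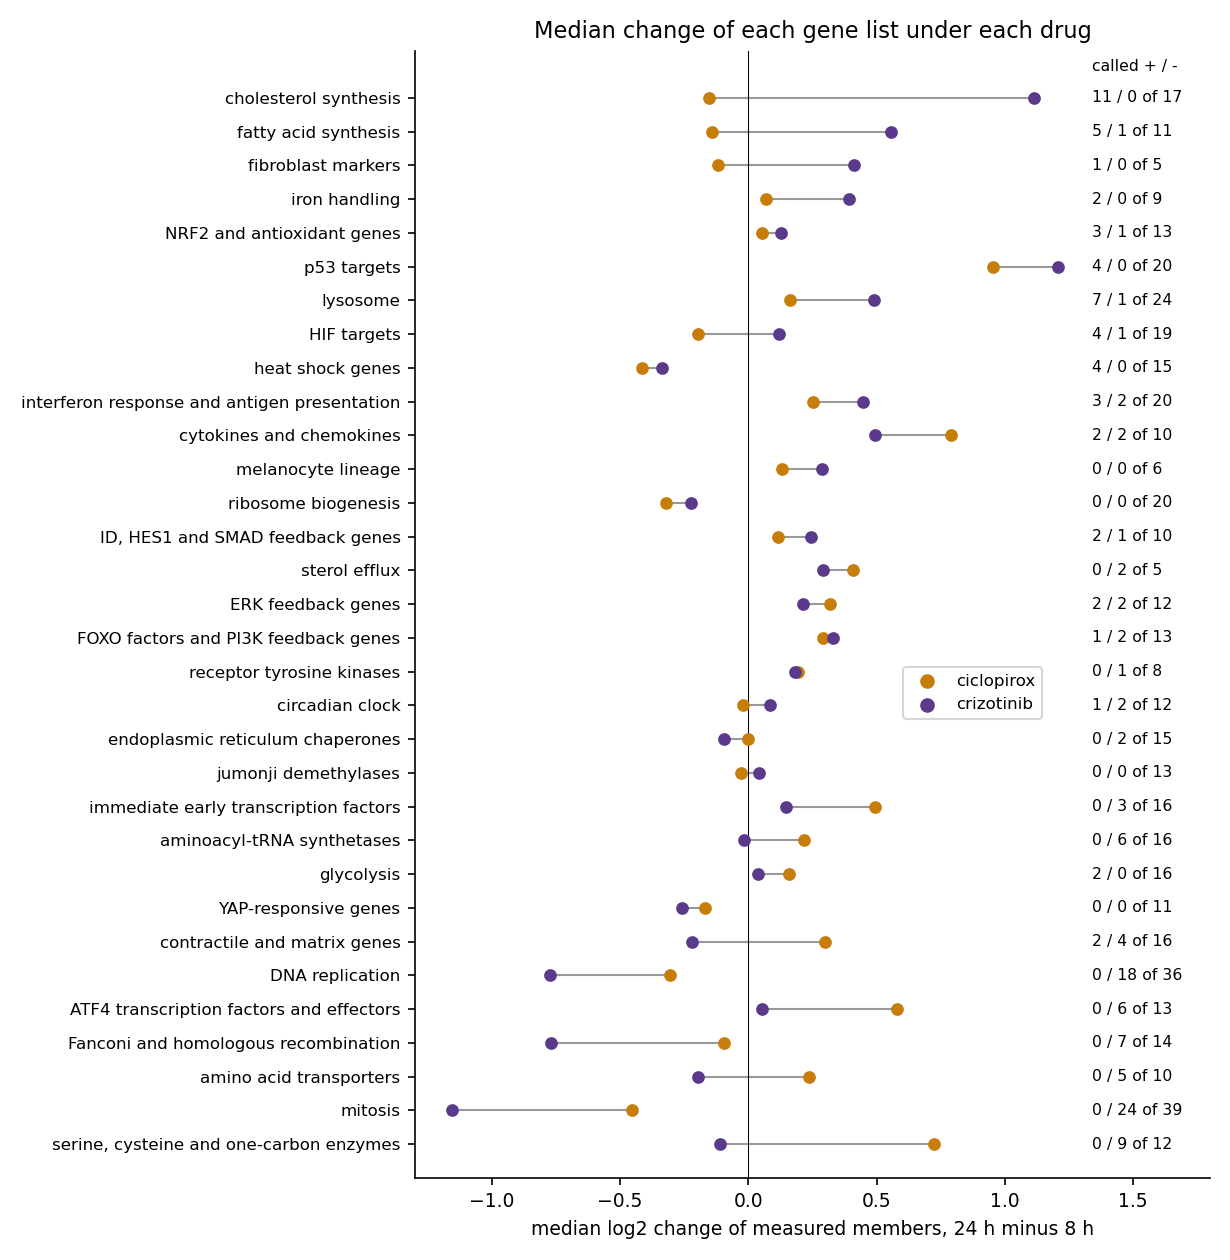
For each gene list, points give the median log2 change from 8 h to 24 h of its measured members under ciclopirox (orange) and crizotinib (purple), joined by a line, and the figures at the right count members called more positive and more negative under crizotinib. Lists are ordered by the median difference, from cholesterol synthesis (11 and 0 of 17) to serine, cysteine and one-carbon enzymes (0 and 9 of 12).

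Secreted and matrix genes held the most negative difference of all. SERPINA3, an acute-phase protease inhibitor, measured 9.92, 9.93 and 10.16 at 8 h and 11.68 and 11.36 at 24 h of ciclopirox, where the controls also lay (11.53 and 11.18). With crizotinib it went from 9.98, 10.02 and 10.84 to 8.66 and 8.36. It thus rose by 1.51 under ciclopirox and fell by 1.77 under crizotinib (difference -3.28 ± 0.34, limma adjusted p = 0.000495). TNC, the matrix glycoprotein tenascin-C, followed the same course, from 9.46, 9.57 and 9.27 to 10.16 and 10.32 with ciclopirox and from 9.37, 9.66 and 9.54 to 8.76 and 8.49 with crizotinib (difference -1.71 ± 0.18, limma adjusted p = 0.000544). HAS2, a hyaluronan synthase, rose at least 1.8-fold under ciclopirox and was at background in both crizotinib groups. CEMIP, which degrades hyaluronan, rose under both drugs by 1.42 and 2.31 (difference -0.89, limma adjusted p = 0.0118). Its call was lost without crizotinib 24 h replicate 2 (adjusted p = 0.0517). ACTA2, smooth muscle actin, rose from 8.39, 8.50 and 8.50 to 11.35 and 11.34 with crizotinib and from 8.23, 8.07 and 8.10 to 9.93 and 9.97 with ciclopirox (difference 1.06 ± 0.11, limma adjusted p = 0.000584). Among 16 contractile and matrix genes, 2 were called more positive and 4 more negative. The calls of the contractile genes TAGLN and TPM1 were lost without 10 and 11 of the 12 arrays in turn.

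The list of cytokines and chemokines had 10 measured members, among them the protease inhibitor SERPINA3, which is neither. IL1B (0.84) and IL24 (0.79) rose more under crizotinib, and SERPINA3 and CCL2 (-0.95) were more negative. IL1B, a pro-inflammatory interleukin, rose under both drugs, by 2.65 and 1.81. IL1A rose by 2.15 and 1.87, with a difference of 0.28 that did not pass. CCL2, a monocyte attractant, fell by 1.26 under crizotinib, and its call was lost without ciclopirox 24 h replicate 2 (adjusted p = 0.0731) or crizotinib 24 h replicate 2 (adjusted p = 0.0707).

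Lysosomal genes rose mainly under crizotinib. Of 24 measured, 18 rose under crizotinib and 6 under ciclopirox, and 7 differed upward and 1 downward (median 0.26). The 8 calls became 3 without either crizotinib 24 h array and 4 without ciclopirox 24 h replicate 2. GPNMB, a membrane glycoprotein of melanosomes and lysosomes, measured 9.27, 9.04 and 8.94 and then 10.07 and 10.31 with crizotinib, and 8.76, 8.63 and 8.74 and then 8.58 and 8.52 with ciclopirox (difference 1.26 ± 0.18, limma adjusted p = 0.00189). NAGLU (0.69), which degrades heparan sulfate, rose under crizotinib alone. CD68, counted above with the leukocyte markers, rose by 1.15 and 0.36 (difference 0.79 ± 0.12, limma adjusted p = 0.00279).

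In the PI3K feedback list 3 of 13 differed, and TXNIP and CDKN1B already stood apart at 8 h. TXNIP, an inhibitor of thioredoxin and of glucose uptake, measured 10.65, 10.41 and 10.42 at 8 h and 10.93 and 10.72 at 24 h of crizotinib. With ciclopirox it went from 9.35, 9.48 and 9.22 to 11.06 and 10.88, so that the groups were separate at 8 h and overlapped at 24 h (difference -1.29 ± 0.17, limma adjusted p = 0.00151). CDKN1B, which encodes the cell cycle inhibitor p27, was higher at 8 h of crizotinib (9.30, 9.40 and 9.28) than with ciclopirox (8.29, 8.45 and 8.08). It fell to 8.22 and 8.33, overlapping the ciclopirox 24 h arrays (8.22 and 8.83), with a difference of -1.30 ± 0.23 (limma adjusted p = 0.0063). Its other probe gave -0.62, with changes of -0.83 under crizotinib and -0.21 under ciclopirox. BMAL1, a core clock activator, rose by 1.03 under ciclopirox alone (difference -0.98 ± 0.18, limma adjusted p = 0.00674). Its level was around the background limit of 5.334, with 5.25, 5.15 and 5.53 at 8 h of ciclopirox and 5.34 to 5.47 with crizotinib. The sizes of its changes are therefore uncertain, and a fall under crizotinib could not have been seen. ID2 (1.17), an inhibitor of differentiation factors, rose under crizotinib alone.

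Named and listed genes with more than 1 probe allowed a check of probe choice. Of 62 further probes of 55 called genes, 5 gave a difference of the opposite sign and 17 a difference at least 1.5 times smaller than the probe used. The 5 were probes of SREBF1, SH2D5, CRY1 (0.04 against -0.52) and TPM1 (0.31 and 0.29 against -0.40). Among genes described above, smaller differences came from probes of LSS (0.45), ACSS2 (0.27), SPRY1 (0.80), SPRY4 (-0.21), TP53I3 (0.44), ID2 (0.73) and CENPO (-1.02). For SPRY1 the further probe rose by 0.16 under crizotinib and fell by 0.64 under ciclopirox. PTPRR, described next, gave 0.40 on its other probe. Among genes that missed the threshold, further probes gave -0.58 for SLC3A2, 0.43 for GADD45A, and 0.20 and -0.79 for ATF4. These values were not tested singly.

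The other genes with the most positive differences were moved mainly by crizotinib. CPA4, a carboxypeptidase, rose by 1.56 under crizotinib and fell by 0.77 under ciclopirox (2.33 ± 0.29, limma adjusted p = 0.00113). TSPAN10, a tetraspanin, went from 5.27, 5.69 and 5.70 to 8.52 and 8.41 with crizotinib and from 5.41, 5.50 and 5.72 to 6.32 and 6.29 with ciclopirox (2.15 ± 0.22, limma adjusted p = 0.000505). PTPRR (1.86), a tyrosine phosphatase that acts on MAP kinases, CYP4V2 (1.83), a fatty acid hydroxylase, and NUDT18 (1.80) rose under crizotinib alone, and NUDT14 (1.85) rose more under crizotinib. SH2D5 gave 1.81, but its other probe gave -0.32. On the negative side, ART3 (-2.00) and SPRR2D (-1.59) rose under ciclopirox alone, and ZNF682 (-1.61) fell under crizotinib alone. AIF1 (-1.81 ± 0.48, limma adjusted p = 0.0368) passed neither within-drug test, and its call was lost without 9 of the 12 arrays in turn (adjusted p up to 0.122, without crizotinib 24 h replicate 2).

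A treated group was wholly at background in 84 of the called genes, for which the size of the difference is uncertain. The largest were SCRG1, CDKN1A, NPFFR2 and FGFBP1. SCRG1 measured 5.95, 5.77 and 5.89 at 8 h and 4.23 and 4.28 at 24 h of crizotinib, a fall of at least 1.45-fold into background, and rose from 5.18, 5.60 and 5.43 to 6.12 and 6.96 with ciclopirox. NPFFR2, a neuropeptide receptor, rose at least 3.81-fold under crizotinib. FGFBP1, which releases stored fibroblast growth factors, rose from 6.07, 5.87 and 5.20 to 7.40 and 7.49 under crizotinib and was at background in both ciclopirox groups. Some genes ranked above had only part of a ciclopirox group above background, and their sizes are uncertain too. These include PTPRR (5.03, 5.45 and 5.21 at 8 h, 5.13 and 5.41 at 24 h) and MVD (4.99 and 5.84 at 24 h). CPA4 (5.24 and 5.38 at 24 h) and ART3 (5.67, 5.21 and 5.33 at 8 h) are others, as are BMAL1, NUDT14, FOS and AIF1 at 8 h. A crizotinib array lay below the limit in TSPAN10 (5.27 at 8 h), NUDT18 (5.28 at 8 h) and VLDLR (5.16 at 24 h).

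Other lists ranged from no calls to shares above the 11.3% of all genes tested. In the lists of ribosome biogenesis (20 genes), jumonji demethylases (13, iron-dependent enzymes), YAP-responsive genes (11), melanocyte lineage genes (6) and EGFR ligands (4), 0 members passed in limma, and 5, 1, 4, 1 and 1 had an unadjusted p under 0.05. Medians of these lists lay between -0.18 and 0.08. Iron handling gave 2 of 9 (22.2%), led by STEAP3 (0.73 ± 0.13, limma adjusted p = 0.0068), a ferrireductase that rose by 0.40 under crizotinib and fell by 0.33 under ciclopirox. The other, HMOX1 (0.57), lost its call without 10 of the 12 arrays in turn (adjusted p up to 0.159, without ciclopirox 24 h replicate 2). The NRF2 list gave 3 more positive and 1 more negative of 13 (30.8%), and 0 of these calls were left without crizotinib 24 h replicate 1. Interferon and antigen presentation genes gave 3 and 2 of 20 (25%), with IFI6 (0.63 ± 0.12, limma adjusted p = 0.0077) rising under crizotinib alone, and 1 call was left without crizotinib 24 h replicate 1. Of the circadian clock genes 3 of 12 (25%) were called, and of the sterol efflux genes 2 of 5 (40%), both more negative, with 0 left without ciclopirox 24 h replicate 1 or either crizotinib 24 h array.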

How the data were processed

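Expression was measured in A375 cells on Illumina bead arrays, from total RNA (300 ng per labelling reaction, per the labels). The scanner table that the authors deposited gives, per the file headers, each probe's average signal intensity. A detection p-value stands beside every intensity, per the file headers, for 47231 probes and 12 arrays. They also deposited normalized intensity values of 38220 probes, named by sample, on a linear scale from 11.99 to 38205.3. GenomeStudio is named in the submitters' processing notes without a version. The sources used here do not give the normalization method. Such normalized values cannot show a change in total RNA. The scanner signals were already background-subtracted, since 28.8% were below 0.

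The normalized values were taken to log2 with no offset. Probes detected (p under 0.01) on 2 or more of the 12 arrays were kept (16563), a filter that needs no sample names. Platform annotation gave 27002 probes a single symbol, 4 several and 11214 none, and the brightest probe per symbol left 10330 genes. A group mean was fitted in R 4.3.3 with limma 3.58.1 on all 12 arrays (7 residual degrees of freedom). Tests were two-sided, with Benjamini-Hochberg adjustment over all genes and calls at an adjusted p under 0.05. Background was the 99th percentile (5.334 on the log2 scale) of the 20196 probes detected on no array, and a change from a group at background is given as a bound. A bound divides the mean of the bright group by the dim value or, where that is higher, by the dimmest value above background. The number of arrays limits the precision. The contrast script was tested on simulated data.

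Named genes are the 12 most positive and the 12 most negative called genes above background on 1 array or more of each treated group. Added to these are up to 2 such called members per list, the 4 largest at background, and MET, ALK and SREBF2. Further list members were named after their values were seen. The members and the 36 lists (617 genes, 473 measured) were chosen with earlier results of these data known, so no list was tested. Motif searches covered 6 motifs on both strands. They were CCAAT for NF-Y, TTTGAA for the cell cycle region and TCACNCCAC for the sterol element. The others were TGATGNAA for the ATF4 element, TGACGTCA for the cyclic AMP element, and the CArG box. A CArG box can contain CCAAT, and no other motif of the 6 contains another. Same-numbered arrays did not deviate together (correlations from -0.097 to 0.080), and the main fit used no replicate block. With so few arrays per group, and names in conflict, these correlations cannot show whether the titles' numbers pair samples. Alternatives changed the filter, offset, normalization, probe choice, variance model, array weights, arrays included, replicate block and source table. Scanner columns matched to samples by their values served only as alternatives.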

Additional observations from a re-analysis of the deposited data

Results flagged for a closer look

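The test of the difference itself picked out 1172 genes whose change from 8 h to 24 h was not the same under the 2 drugs (limma, adjusted p under 0.05). Of the genes named by rule, these moved in opposite directions, with the difference in log2 change in brackets. HMGCS1 (2.92), MSMO1 (2.58), DHCR7 (2.44), CPA4 (2.33), BHLHE40 (2.04), PFKFB4 (1.56), SPRY1 (1.47) and STEAP3 (0.73) rose with crizotinib and fell with ciclopirox. SERPINA3 (-3.28), SCRG1 (-2.75), SLC6A9 (-2.26), TNC (-1.71), PSMC3IP (-1.70), SLC1A5 (-1.29), EGFR (-0.99) and GARS1 (-0.73) fell with crizotinib and rose with ciclopirox, EGFR on 1 of its 2 probes (the other gave -0.44, with 0.07 under crizotinib).

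Crizotinib alone raised MVD (2.69), NPFFR2 (2.16), FGFBP1 (2.10), PTPRR (1.86), CYP4V2 (1.83), SH2D5 (1.81), NUDT18 (1.80), GPNMB (1.26), ID2 (1.17), SCD (1.16), FASN (1.04), ISG15 (0.90), MFAP5 (0.79), ID1 (0.66), IFI6 (0.63), HMOX1 (0.57) and PFKM (0.49). It alone lowered CENPO (-1.70), ZNF682 (-1.61), FANCB (-1.56), CDK1 (-1.44), RAD54L (-1.41), CDKN1B (-1.30), KIF4A (-1.28), POLE (-1.08), VLDLR (-0.96), CCL2 (-0.95), MARS1 (-0.88) and MYLIP (-0.68). Ciclopirox alone raised EGR1 (-2.21), ART3 (-2.00), FOS (-1.86), DDIT3 (-1.59), SPRR2D (-1.59), PCK2 (-1.51), CTH (-1.47), TXNIP (-1.29), XBP1 (-0.98) and BMAL1 (-0.98), and lowered TXNRD1 (0.57). "Alone" means that the other drug's change did not pass its test. "Raised" and "lowered" compare 24 h with 8 h of the same drug, without untreated cells at these times.

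Both drugs raised CDKN1A (2.17), TSPAN10 (2.15), NUDT14 (1.85), ZMAT3 (1.38), ACTA2 (1.06), SESN1 (0.87), CTSF (0.83), CD68 (0.79) and ALDOC (0.77), crizotinib by more, and SPRY4 (-0.51), ciclopirox by more. Both lowered HSPA1A (1.56) and HSPA1B (1.09), ciclopirox by more, and POLE2 (-1.06) and HSPA5 (-0.55), crizotinib by more. The sizes for NPFFR2, FGFBP1, SCRG1 and CDKN1A are uncertain, as a group lay wholly at background. Those for PTPRR, MVD, CPA4 and ART3 are uncertain too, as part of a ciclopirox group did. The same holds for BMAL1, NUDT14, FOS and AIF1. Part of a crizotinib group did in TSPAN10, NUDT18 and VLDLR. AIF1 (-1.81) passed neither within-drug test. When arrays were left out singly, the calls of ISG15, MFAP5, ID1, HMOX1, CTSF, MYLIP and TXNRD1 were lost at least once. So were those of AIF1, SPRY4, PFKM, HSPA5, ALDOC, CCL2 and VLDLR.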

How the results depend on the processing

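All 1172 called genes kept the sign of their difference under each alternative that measured them, except 1 with the mean of all probes (1171 kept) and 38 under the descriptions' names (1134 kept). Since the genes were called on the same arrays, a kept sign is not independent support. Counts of genes called for the difference stayed within 1.5 times of 1172 with stricter detection (1361), 16 added before log2 (1353), quantile normalization (1170), mean of probes (1225), the 10 treated arrays only (1074), array weights (1167), a trended robust variance model (1723, of which 804 more positive) and scanner columns matched by value (1405 and 1353). With no detection filter, 18810 genes were tested and 541 called, 243 more positive and 298 more negative, and 1242 changed under ciclopirox. Whether the titles' replicate numbers pair the samples is not known, and a fit with the replicate block called 909 genes, 423 more positive and 486 more negative. Median scaling of matched scanner columns gave 709 more positive and 644 more negative. With arrays left out singly, the calls ranged from 583 to 1120, those more positive from 256 to 532 and those more negative from 327 to 588, and the within-drug counts from 2558 to 3982 for crizotinib and 1222 to 2194 for ciclopirox.

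With the scanner signals named by the descriptions, 0 genes passed for the difference and for either drug (limma; 1525 at an unadjusted p under 0.05 for the difference). The signs that matched there are not independent, since crizotinib 24 h arrays remain on the positive side of that contrast. Of the genes followed, 17 turned sign under those names: ABCA1 (0.50), MYLIP (0.025), VLDLR (0.18), SPRY4 (0.15), XBP1 (0.093), TRIB3 (0.16), PSAT1 (0.13), PSPH (0.20), PHGDH (0.063), SARS1 (0.011), WARS1 (0.10), CEMIP (0.55), HAS2 (0.13), STC2 (0.13), HSPA1B (-0.17), HMOX1 (-0.069) and INSIG1 (-0.047). The cause was not tested. Genes near background are limited by signal, and their differences may be understated.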
